A study of Homo sapiens with 18 samples.

Results

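The p53 pathway restrains itself through a small set of genes, and 5 of them were followed here across 6 groups of IMR90 cells: MDM2, MDM4, PPM1D, CCNG1 and USP7. The 5 were chosen by name as rows of the deposited read count table, out of 60668 genes in that table, and all 5 passed the filter on low counts. IMR90 is a line of wild-type primary human fibroblasts. The groups were irradiated senescent cells given RG7388, HDM201 or the solvent DMSO (IR_RG7388, IR_HDM201, IR_DMSO) and proliferating cells given the same 3 agents (Prolif_RG7388, Prolif_HDM201, Prolif_DMSO), with 3 poly(A) RNA libraries each, 18 in all. RG7388 (idasanutlin) and HDM201 (siremadlin) are small molecules that occupy the p53-binding pocket of MDM2. Irradiation was by X-rays, exposure to the compounds began on day 4 and lasted 7 days, and RNA was taken on day 11. The labels give the proliferating cells the same treatment text and no exposure time of their own. Each DMSO group is the control of both compounds in its state, so the 2 compound comparisons of a state share 3 libraries. The study used the compounds at different doses, so their values stand side by side without a test between them. In cell culture the study took a well of a culture plate as its biological replicate, so every p-value here sets a difference against the variation among wells.

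MDM2 is the ubiquitin ligase that marks p53 for degradation, and p53 in turn switches on the MDM2 gene, which closes a negative feedback loop. MDM4 is a relative of MDM2 with little ligase activity of its own that covers the activation domain of p53 and pairs with MDM2. PPM1D, also called WIP1, is a phosphatase that p53 induces and that removes activating phosphates from p53 and from the damage kinases. CCNG1, cyclin G1, is a p53 target that brings the phosphatase PP2A to MDM2. USP7 is a deubiquitinase that takes ubiquitin off both MDM2 and p53.

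Levels are given in CPM, read counts brought to one sequencing depth with trimmed-mean (TMM) factors, and errors of levels are SDs with n = 3. A change is given on the log2 scale, ± its standard error, from the edgeR quasi-likelihood test, with p adjusted by Benjamini-Hochberg over 18151 genes, and a gene is called where that p is under 0.05. The libraries held 21609198 to 66647700 counted reads, and the members had 174 reads (MDM4 in an IR_HDM201 library) to 21521 reads (CCNG1 in another IR_HDM201 library), so counting error weighs most on MDM4. All 8 fibroblast markers were above 1 CPM in every group, while the summed level was 0.948 to 3.78 CPM over 6 leukocyte markers and 2.35 to 14.8 CPM over 5 epithelial markers. Of 5 endothelial markers, TEK was at 78.0 to 135 CPM. The others were low, CDH5 at 0 to 0.191, PECAM1 at 0 to 0.349, KDR at 0 to 0.997 and VWF at 0.431 to 1.49 CPM. A pair of libraries stood apart: replicate 1 of IR_DMSO had 0.668% of its reads on mitochondrially encoded genes, against 2.38% to 3.47% in the other 17 libraries, and replicate 3 of Prolif_HDM201 correlated less with its own group (mean r = 0.939) than the other Prolif libraries (0.953 to 0.967). The 3 IR_HDM201 libraries correlated least with each other (0.914 to 0.929).

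MDM2 lies on chromosome 12 (68808177 to 68845544, plus strand, hg38) and has an outer and an inner promoter, the inner of which is the one known to respond to p53. The 250 bases upstream of an outer and of an inner start in RefSeq (hg38) are printed because the feedback loop runs through the inner one. Capitals mark matches to the p53 consensus, a pair of adjoining 10-base half-sites, with at most 3 mismatches in 20 bases.
MDM2 outer promoter, chr12:68807922-68808171, plus strand: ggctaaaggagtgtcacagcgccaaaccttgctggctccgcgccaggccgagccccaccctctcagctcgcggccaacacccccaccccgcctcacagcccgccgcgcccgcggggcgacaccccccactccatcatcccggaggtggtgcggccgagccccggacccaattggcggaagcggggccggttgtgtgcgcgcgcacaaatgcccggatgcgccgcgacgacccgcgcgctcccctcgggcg
MDM2 inner promoter, chr12:68808767-68809016, plus strand: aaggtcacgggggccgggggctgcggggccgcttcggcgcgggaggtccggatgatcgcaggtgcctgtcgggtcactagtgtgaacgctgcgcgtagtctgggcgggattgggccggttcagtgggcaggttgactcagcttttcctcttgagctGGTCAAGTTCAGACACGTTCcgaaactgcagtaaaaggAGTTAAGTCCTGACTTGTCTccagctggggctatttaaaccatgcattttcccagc
The inner window held 2 matches, at chr12:68808923-68808942 with 2 mismatches and at chr12:68808961-68808980 with 3 mismatches, which begin 94 and 56 bases before that start. Of 35116 RefSeq windows of 250 bases, 0.561% held a match with at most 2 mismatches and 4.36% one with at most 3. The consensus is its own reverse complement, so the search covers both strands. RefSeq windows were found for all 5 members (4 for MDM2, 1 for MDM4, 1 for PPM1D, 2 for CCNG1 and 3 for USP7), and matches were found in the 2 inner windows of MDM2 alone, which overlap each other. A window without a match says only that these letters are not in these 250 bases.

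**Figure D1:**
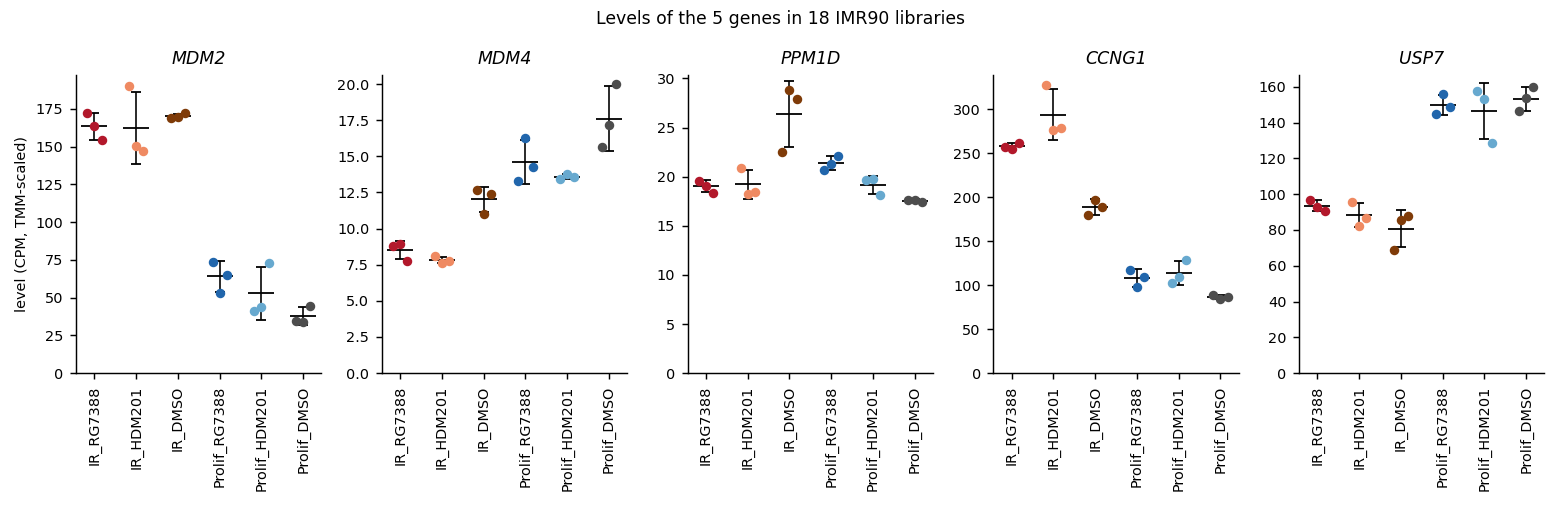
Level of each gene in CPM (vertical axes start at 0) in the 18 libraries, 1 point per library, with a line for the mean and bars for the SD of 3 libraries. MDM2 and CCNG1 lie higher and USP7 lower in every irradiated library than in every proliferating one, and PPM1D is highest in IR_DMSO.

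Irradiation changed all 5 genes in read counts. In IR_DMSO against Prolif_DMSO, 5 of 5 were called, where 51.6% of all genes tested were, and the libraries of the groups did not overlap in any of the 5 (61.2% of all genes). MDM2, PPM1D and CCNG1 rose, 3 of 5 (26.3% of all genes), and MDM4 and USP7 fell, 2 of 5 (25.3%). In irradiated cells RG7388 changed 3 of 5 (22.8% of all genes): CCNG1 rose (10.9%) and MDM4 and PPM1D fell (11.9%), and libraries were apart for 4 of 5 (44.3%). HDM201 changed the same genes, 3 of 5 (21.3%), again with CCNG1 up (9.96%) and MDM4 and PPM1D down (11.3%), and libraries were apart for 3 of 5 (36.2%). The compounds share their DMSO libraries, so these are not separate observations. In proliferating cells RG7388 raised MDM2, 1 of 5 (1.54% of all genes were called and 1.20% as higher), and libraries were apart for 3 of 5 (25.8%). HDM201 gave 0 calls among the 5 there with edgeR (0.700% of all genes) and 1 with DESeq2, CCNG1 (302 of 14392 genes). With edgeR, 3 of 5 had an unadjusted p under 0.05. These were CCNG1, MDM4 and MDM2, ranked 164th, 449th and 766th by p among all genes tested. The share of all genes under that unadjusted threshold is not given here, so 0.700% is no background for this count. Libraries were apart for 3 of 5 (13.0%). The rise of CCNG1 with RG7388 in irradiated cells and the fall of MDM4 after irradiation turn round in the deposited FPKM values, which are set beside the counts further on. MDM2 in irradiated cells was lower with each compound in FPKM, without a call.

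**Figure D2:**
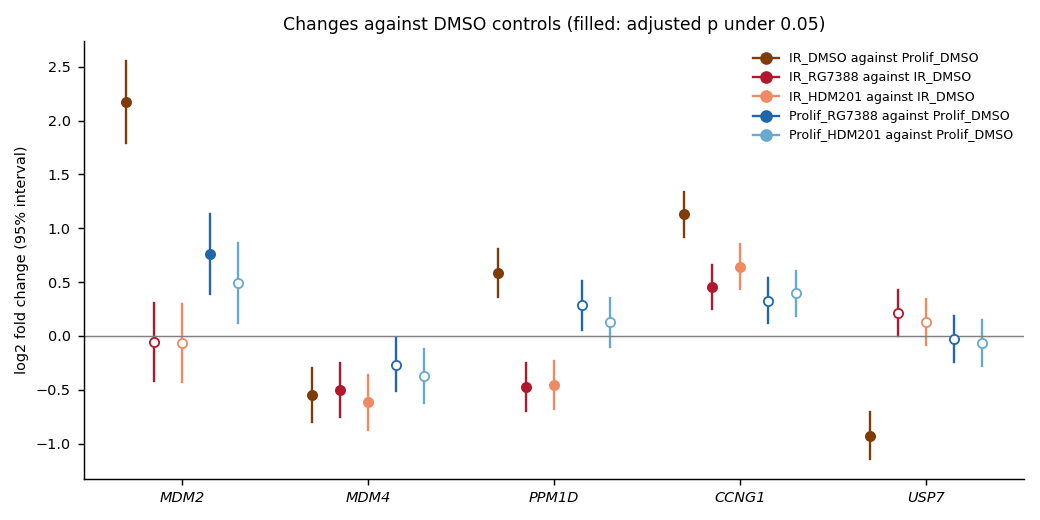
Log2 fold change of each gene in the 5 comparisons with DMSO controls, with 95% intervals from the edgeR fit to 18 libraries and filled points where the adjusted p is under 0.05. MDM2 has the largest rise after irradiation (2.17) and intervals across 0 with both compounds in irradiated cells, and PPM1D lies above 0 after irradiation and below 0 when a compound is added to irradiated cells.

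MDM2, the ligase, was at 169, 169 and 172 CPM in the IR_DMSO libraries and at 34.7, 33.7 and 44.8 CPM in the Prolif_DMSO libraries. The irradiated libraries lie close together and far above the proliferating ones. The rise was 4.51-fold (95% interval 3.46 to 5.88; log2 2.17 ± 0.18, adjusted p = 6.65e-09) and ranked 1184th of 18151 genes by size of change. Adding a compound to irradiated cells left the CPM level in the same range: 172, 164 and 154 CPM in IR_RG7388 and 189.8, 150.4 and 147 CPM in IR_HDM201, both overlapping IR_DMSO. The log2 change was -0.06 ± 0.17 with RG7388 (95% interval -0.42 to 0.30, adjusted p = 0.854) and -0.07 ± 0.17 with HDM201 (95% interval -0.43 to 0.30, adjusted p = 0.835). These intervals leave room for a fall to 0.746-fold or a rise to 1.24-fold with RG7388, and for 0.742-fold to 1.23-fold with HDM201. In FPKM the level was lower, 36.0 to 45.6 with RG7388 and 40.6 to 49.0 with HDM201, against 53.8 to 65.4 with DMSO. Those differences, -0.53 and -0.40 on log2(FPKM + 1), were not called (limma, adjusted p = 0.0818 and 0.195). The medians of all genes on that scale were -0.12 and -0.08.

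In proliferating cells MDM2 was at 73.8, 53.2 and 65.1 CPM with RG7388, against 33.7 to 44.8 CPM with DMSO, and the groups did not overlap (25.8% of all genes). It rose 1.70-fold (log2 0.76 ± 0.18, adjusted p = 0.0360). That call depends on single libraries: without Prolif_RG7388 replicate 1 or 3 the adjusted p was 0.134 or 0.112, and without Prolif_DMSO replicate 1 or 2 it was 0.198 or 0.124, although the log2 change stayed between 0.66 and 0.91 in all 6 leave-one-out fits. With HDM201 the libraries were at 41.2, 44.1 and 73.0 CPM and overlapped DMSO (log2 0.49 ± 0.18, adjusted p = 0.302). Replicate 3, the highest of them, is the library that stood apart, and without it the log2 change was 0.18 (adjusted p = 0.414). Over all genes, leaving it out took the calls of this comparison to 1672, against 127 with it.

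With a compound MDM2 still differed between the states, 2.55-fold in IR_RG7388 against Prolif_RG7388 (log2 1.35 ± 0.18, adjusted p = 4.17e-06) and 3.07-fold in IR_HDM201 against Prolif_HDM201 (log2 1.62 ± 0.18, adjusted p = 4.12e-07). These comparisons called 4 of 5 members each, where 44.0% and 46.5% of all genes were called, with MDM2 and CCNG1 higher (21.3% and 22.7% of all genes) and MDM4 and USP7 lower (22.8% and 23.8%). The interaction asks whether a compound changes a gene by a different amount in irradiated than in proliferating cells, and it called 2 of 5 members for RG7388 (7.47% of all genes) and 1 of 5 for HDM201 (8.64%), all as negative (5.27% and 5.67%). For MDM2 it was -0.82 ± 0.25 with RG7388, at the very edge of the threshold (adjusted p = 0.0499, the last of 1356 genes called), and -0.55 ± 0.25 with HDM201 (adjusted p = 0.195). Leaving out any single one of 10 of the 12 libraries ended the RG7388 call, with adjusted p between 0.0574 and 0.123, the exceptions being Prolif_DMSO replicate 3 and Prolif_RG7388 replicate 2. DESeq2 size factors (adjusted p = 0.0594) and library totals (0.0528) ended it too. The other alternatives kept it, with adjusted p between 0.00100 and 0.0416, and in FPKM it was -1.25 (limma, adjusted p = 0.0124).

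MDM4, the partner of MDM2 on chromosome 1 (204516379 to 204558120, plus strand), was lower in irradiated than in proliferating cells in read counts, while in FPKM it was lower only with a compound. It was at 12.7, 11.0 and 12.4 CPM in IR_DMSO, all below the 15.6, 17.2 and 20.03 CPM of Prolif_DMSO (log2 -0.55 ± 0.12, 0.683-fold, adjusted p = 0.000533). With library totals the change was -0.26 and not called (adjusted p = 0.0644), on a scale where the median of all genes is at 0.34. Compounds lowered it further in irradiated cells. IR_RG7388 libraries were at 8.78, 8.91 and 7.78 CPM (log2 -0.50 ± 0.12 against IR_DMSO, adjusted p = 0.00420), and IR_HDM201 libraries at 8.09, 7.64 and 7.73 CPM (log2 -0.62 ± 0.12, adjusted p = 0.000845). All 6 libraries with a compound lie below all 3 with DMSO, where 44.3% of all genes were apart with RG7388 and 36.2% with HDM201. In FPKM these falls were larger, -0.95 with RG7388 and -0.97 with HDM201 on log2(FPKM + 1) (limma, adjusted p = 0.00158 and 0.00135) and -1.35 and -1.40 on log2(FPKM + 0.1). The medians of all genes on log2(FPKM + 1) were -0.12 with RG7388 and -0.08 with HDM201. The RG7388 call ended without a filter on low counts (adjusted p = 0.0556), where more genes are tested.

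In proliferating cells MDM4 was at 13.3, 16.3 and 14.3 CPM with RG7388 (log2 -0.27 ± 0.12 against DMSO, adjusted p = 0.352) and at 13.4, 13.8 and 13.5 CPM with HDM201 (log2 -0.37 ± 0.12, adjusted p = 0.211). The HDM201 libraries lie below all DMSO libraries (13.0% of all genes were apart) and the RG7388 libraries overlap them, and neither difference was called. Irradiated cells were lower than proliferating cells with RG7388 (log2 -0.78 ± 0.12, adjusted p = 1.62e-05) and with HDM201 (log2 -0.79 ± 0.12, adjusted p = 1.47e-05), the second of which was not called in FPKM (-0.36, adjusted p = 0.113). The interactions were not called, -0.23 ± 0.17 for RG7388 and -0.24 ± 0.17 for HDM201 (adjusted p = 0.514 and 0.453).

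PPM1D, the phosphatase gene on chromosome 17 (60600193 to 60666280, plus strand), was highest in irradiated cells without a compound. IR_DMSO libraries were at 22.5, 28.8 and 27.9 CPM, above the 17.6, 17.6 and 17.4 CPM of Prolif_DMSO (1.501-fold, log2 0.59 ± 0.11, adjusted p = 8.55e-05). The lowest of them, 22.5 CPM, is the IR_DMSO library with few mitochondrial reads, and without it the log2 change was 0.66. With a compound the irradiated level was close to the proliferating one. IR_RG7388 libraries were at 19.6, 19.1 and 18.4 CPM (log2 -0.47 ± 0.11 against IR_DMSO, adjusted p = 0.00242) and IR_HDM201 libraries at 20.9, 18.3 and 18.4 CPM (log2 -0.45 ± 0.11, adjusted p = 0.00389). All 6 lie below every IR_DMSO library, where 44.3% of all genes were apart with RG7388 and 36.2% with HDM201. They also lie above every Prolif_DMSO library, a comparison that was not tested.

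In proliferating cells PPM1D was at 20.7, 21.3 and 22.1 CPM with RG7388 (log2 0.28 ± 0.11, adjusted p = 0.252) and at 19.7, 19.7 and 18.1 CPM with HDM201 (log2 0.13 ± 0.11, adjusted p = 0.767). In CPM both sets lie above all DMSO libraries, where 25.8% of all genes were apart with RG7388 and 13.0% with HDM201. Neither difference was called. In FPKM the RG7388 libraries also lie above all DMSO libraries (0.18 on log2(FPKM + 1), limma, adjusted p = 0.433). The HDM201 libraries overlap them in FPKM, with a difference of 0.0034 (adjusted p = 0.993). The difference between irradiated and proliferating cells was small with a compound: log2 -0.17 ± 0.11 with RG7388 (95% interval -0.39 to 0.06, adjusted p = 0.225) and 0.01 ± 0.11 with HDM201 (95% interval -0.22 to 0.23, adjusted p = 0.964). The interaction was called with RG7388 (-0.75 ± 0.15, adjusted p = 0.00216) and stayed called in all 12 leave-one-out fits. With HDM201 it was -0.58 ± 0.15 (adjusted p = 0.0180) and lost the call without Prolif_DMSO replicate 3, Prolif_HDM201 replicate 2, IR_DMSO replicate 2 or 3, or IR_HDM201 replicate 2 or 3, with adjusted p between 0.0534 and 0.0680. It was also lost without a filter on low counts (0.157) and in a fit to its own 4 groups (0.0691).

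CCNG1, cyclin G1 on chromosome 5 (163437569 to 163446151, plus strand), rose with irradiation and, in read counts, again with each compound. IR_DMSO libraries were at 179, 197 and 189 CPM, against 88.7, 83.7 and 86.3 CPM in Prolif_DMSO (2.19-fold, log2 1.13 ± 0.10, adjusted p = 3.12e-09), and in FPKM the log2 change was 1.75 (limma, adjusted p = 8.07e-08). IR_RG7388 libraries were at 257, 255 and 262 CPM (log2 0.45 ± 0.10 against IR_DMSO, adjusted p = 0.00191) and IR_HDM201 libraries at 327, 276 and 279 CPM (log2 0.64 ± 0.10, adjusted p = 5.82e-05). No compound library overlaps IR_DMSO in counts, where 44.3% of all genes were apart with RG7388 and 36.2% with HDM201. In FPKM, however, the RG7388 difference is -0.05. With library totals in place of TMM factors the RG7388 rise was 0.27 and no longer called (adjusted p = 0.0920).

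In proliferating cells CCNG1 was at 117, 97.6 and 109 CPM with RG7388 and at 102, 109 and 129 CPM with HDM201. All lie above the highest DMSO library, where 25.8% and 13.0% of all genes were apart. The log2 changes, 0.33 ± 0.10 and 0.40 ± 0.10, were not called (adjusted p = 0.117 and 0.0793), although DESeq2 called both (adjusted p = 0.0473 and 0.00967). With both libraries that stood apart left out, edgeR called both as well (adjusted p = 0.00671 and 0.0161). Over all genes DESeq2 called 588 of 13405 with RG7388 and 302 of 14392 with HDM201. Leaving out both libraries took the edgeR calls over all genes from 279 to 1436 with RG7388 and from 127 to 2833 with HDM201. Neither library belongs to the RG7388 comparison in proliferating cells, but the edgeR fit estimated the spread over all groups together. Irradiated cells were 2.39-fold higher than proliferating cells with RG7388 (adjusted p = 7.45e-10) and 2.59-fold higher with HDM201 (adjusted p = 1.64e-10), and neither interaction was called (0.13 ± 0.14 and 0.24 ± 0.14, adjusted p = 0.708 and 0.338).

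USP7, the deubiquitinase gene on chromosome 16 (8892097 to 8975328, minus strand), differed between the states and was called for neither compound. It was at 68.8, 85.7 and 87.6 CPM in IR_DMSO, against 146, 154 and 159.8 CPM in Prolif_DMSO (0.526-fold, log2 -0.93 ± 0.10, adjusted p = 1.03e-07). The lowest, 68.8 CPM, is again the IR_DMSO library with few mitochondrial reads, and without it the log2 change was -0.85. IR_RG7388 libraries were at 96.9, 92.9 and 90.9 CPM, just above all of IR_DMSO, where 44.3% of all genes were apart. The log2 change was 0.21 ± 0.10 (95% interval -0.001 to 0.43, adjusted p = 0.148). IR_HDM201 libraries were at 95.5, 82.4 and 86.7 CPM (log2 0.13 ± 0.10, adjusted p = 0.415). Proliferating libraries were at 145, 156 and 149 CPM with RG7388 (log2 -0.03 ± 0.10, adjusted p = 0.937) and at 158, 153 and 129 CPM with HDM201 (log2 -0.07 ± 0.10, adjusted p = 0.885). The fall with irradiation was present with RG7388 (log2 -0.68 ± 0.10, adjusted p = 1.14e-05) and with HDM201 (log2 -0.73 ± 0.10, adjusted p = 4.17e-06), and the interactions, 0.25 ± 0.15 and 0.20 ± 0.15, were not called.

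By mean CPM, each member set the 6 groups in a different order. MDM2 had IR_DMSO (170.2 ± 1.63), IR_RG7388 (163 ± 8.94) and IR_HDM201 (162 ± 23.7), which overlap, above Prolif_RG7388 (64.0 ± 10.4), Prolif_HDM201 (52.8 ± 17.6) and Prolif_DMSO (37.7 ± 6.14), where each overlaps the next. MDM4 in counts had the 3 proliferating groups at the top, Prolif_DMSO (17.6 ± 2.24), Prolif_RG7388 and Prolif_HDM201, where each overlaps the next. Below them were IR_DMSO alone in the middle (12.01 ± 0.883) and IR_RG7388 and IR_HDM201 overlapping at the bottom (8.49 ± 0.619 and 7.82 ± 0.235). PPM1D had IR_DMSO alone at the top (26.4 ± 3.39), then Prolif_RG7388 (21.4 ± 0.714), IR_HDM201 (19.2 ± 1.48), Prolif_HDM201 (19.2 ± 0.919) and IR_RG7388 (19.02 ± 0.613), each overlapping the next, with Prolif_DMSO alone at the bottom (17.6 ± 0.113). CCNG1 separated IR_HDM201 (294 ± 28.8), IR_RG7388 (258 ± 3.46) and IR_DMSO (189 ± 8.88) in counts, then had Prolif_HDM201 (113 ± 13.7) and Prolif_RG7388 (108 ± 9.998) overlapping above Prolif_DMSO (86.3 ± 2.50). USP7 formed 2 tiers, 153 ± 6.72 to 147 ± 15.7 in the proliferating groups and 93.6 ± 3.04 to 80.7 ± 10.3 in the irradiated groups, and within each tier neighbours overlap.

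Per unit of transcript length, in FPKM (fragments per kilobase, scaled for depth, the unit here in which genes can be compared with each other), the order of the members also differed between states. In IR_DMSO it was CCNG1 (123 ± 31.4 FPKM), MDM2 (59.5 ± 5.82), USP7 (21.3 ± 0.332), PPM1D (9.70 ± 0.0568) and MDM4 (3.38 ± 1.07). In Prolif_DMSO it was CCNG1 (35.5 ± 3.31 FPKM), USP7 (31.7 ± 1.83), MDM2 (9.17 ± 1.88), PPM1D (4.95 ± 0.129) and MDM4 (2.70 ± 0.750). MDM2 stood above USP7 in the irradiated order and below it in the proliferating one.

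The ratio of MDM2 to MDM4, the pair of proteins that hold p53 down, was taken within each library as a description. In FPKM it was 27.3 to 48.3 in IR_RG7388, 29.3 to 55.5 in IR_HDM201, 14.2 to 21.0 in IR_DMSO, 4.32 to 10.3 in Prolif_RG7388, 5.60 to 8.49 in Prolif_HDM201 and 2.51 to 5.06 in Prolif_DMSO. In read counts, which also carry both gene lengths, it was 18.4 to 19.9 in IR_RG7388, 19.05 to 23.5 in IR_HDM201, 13.4 to 15.4 in IR_DMSO, 3.27 to 5.55 in Prolif_RG7388, 3.07 to 5.39 in Prolif_HDM201 and 1.96 to 2.23 in Prolif_DMSO. On both scales the lowest compound library lies above the highest DMSO library among irradiated cells. Among proliferating cells the same holds in counts for both compounds, and in FPKM for HDM201 alone.

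**Figure D3:**
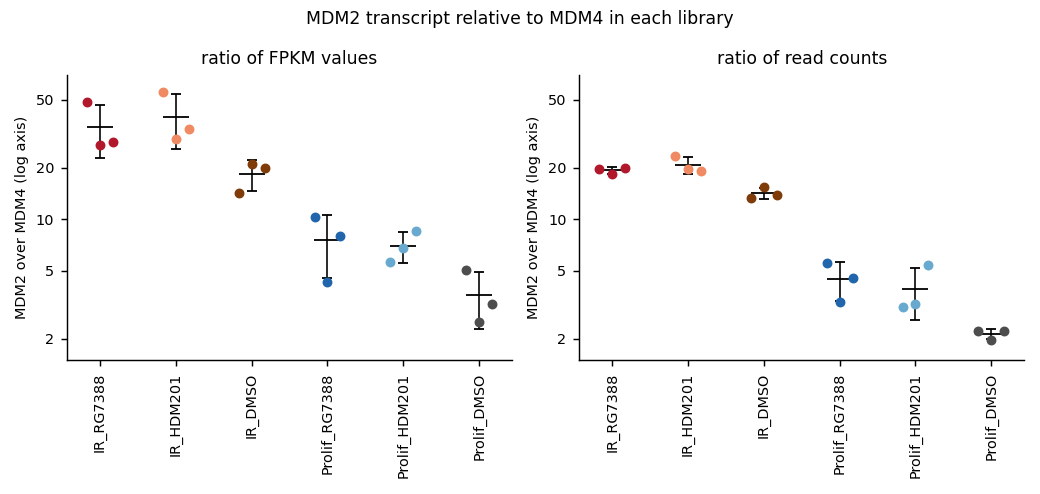
MDM2 over MDM4 in each library, from FPKM values (left) and from read counts (right), on log axes, with a line for the mean and bars for the SD of 3 libraries. Irradiated libraries with a compound are at 27.3 to 55.5 in FPKM, those with DMSO at 14.2 to 21.0, and proliferating libraries with DMSO at 2.51 to 5.06.

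FPKM values differed from the counts in sign in 8 of 45 changes, 5 members in 9 comparisons, and in 2 of the 8 the counts had made a call. MDM4 was at 4.62, 2.83 and 2.70 FPKM in IR_DMSO and at 1.90, 2.83 and 3.38 FPKM in Prolif_DMSO, a log2 difference of 0.24 with limma on log2(FPKM + 1) (adjusted p = 0.295), where counts gave -0.55. The FPKM groups overlap, and the highest value is the IR_DMSO library with few mitochondrial reads. CCNG1 was at 117, 114 and 119.99 FPKM in IR_RG7388 and 159, 108 and 102 FPKM in IR_DMSO, a difference of -0.05 (adjusted p = 0.851), where counts gave 0.45. With HDM201 the FPKM difference of CCNG1 was 0.21 (adjusted p = 0.368), where counts gave 0.64. For MDM2 in irradiated cells, 45.6, 41.4 and 36.0 FPKM with RG7388 and 49.0, 45.0 and 40.6 FPKM with HDM201 all lie below the 65.4, 59.4 and 53.8 FPKM with DMSO, yet the differences of -0.53 and -0.40 were not called (adjusted p = 0.0818 and 0.195). The other changes of sign were not called in either unit. They were USP7 in irradiated cells with RG7388 (-0.020 in FPKM against 0.21 in counts) and HDM201 (-0.092 against 0.13), PPM1D in IR_RG7388 against Prolif_RG7388 (0.019 against -0.17), the interactions of CCNG1 with RG7388 (-0.38 against 0.13) and HDM201 (-0.23 against 0.24), and that of USP7 with HDM201 (-0.0016 against 0.20). Of the 45 changes, 18 were called in both units, 5 in counts alone and 0 in FPKM alone with limma. FPKM values summed to 558464 to 14004900 per library, and IR_RG7388 replicate 2 had the highest sum. On log2(FPKM + 1) the median of all genes was 0.20 after irradiation, and -0.12 with RG7388 and -0.08 with HDM201 in irradiated cells. In counts these medians were 0.05, -0.03 and -0.02, over 18151 genes where the FPKM medians are over 13783. HTSeq made the counts and Cufflinks the FPKM values, and what sets them apart for these genes was not tested.

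**Figure D4:**
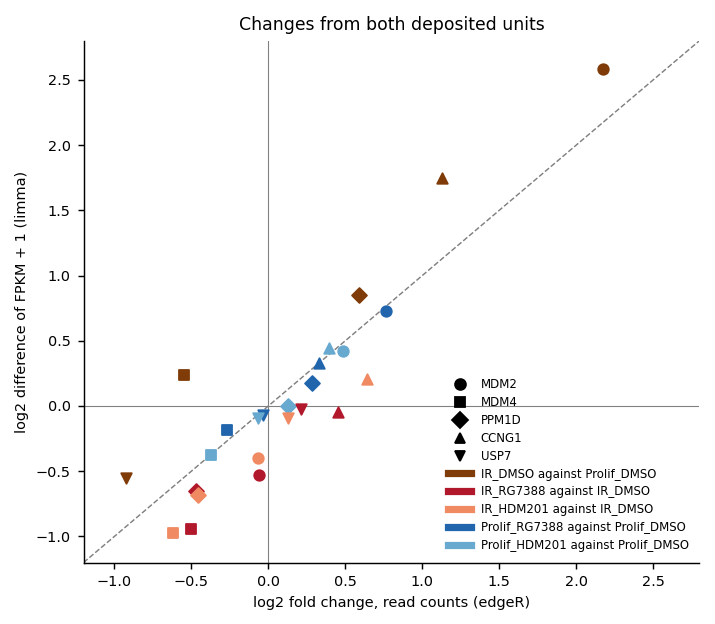
Log2 change of each gene from read counts (horizontal, edgeR) and from FPKM values (vertical, limma on log2 of FPKM + 1) in the 5 comparisons with DMSO controls, with the dashed line where both are equal. The median of all genes differs between the units too, 0.20 in FPKM against 0.05 in counts after irradiation. In irradiated cells it is -0.12 against -0.03 with RG7388 and -0.08 against -0.02 with HDM201. Proliferating comparisons lie near the line, changes of irradiated against proliferating cells lie above it, and changes with a compound in irradiated cells lie below it, where MDM4 (0.24 against -0.55 in counts, after irradiation) and CCNG1 (-0.05 against 0.45, with RG7388) differ in sign, as does USP7 in irradiated cells with RG7388 (-0.020 against 0.21) and HDM201 (-0.092 against 0.13).

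The annotation of MDM2 bears on its counts. Its last 3348 bases, all of them exonic (68842197 to 68845544), overlap the gene CPM, carboxypeptidase M, on the opposite strand (GENCODE 44), and whether reads were counted by strand is not given in the sources used here. CPM had at most 285 reads in a library and its depth-scaled level averaged 3.63 ± 0.471 in IR_RG7388, 3.58 ± 0.666 in IR_HDM201 and 6.38 ± 1.095 in IR_DMSO, and 3.003 ± 0.285 in Prolif_RG7388, 3.25 ± 0.587 in Prolif_HDM201 and 2.52 ± 0.200 in Prolif_DMSO, in the unit used for MDM2. Its level was highest in IR_DMSO, and its part in the MDM2 values was not tested. MDM2 exons also overlap ENSG00000257181 on the opposite strand (1950 bases) and the pseudogene ENSG00000256664 on the same strand (439 bases). Each of these had 0 reads, and how reads in the shared stretches were counted was not tested. USP7 shares 821 exonic bases with its antisense gene USP7-AS1, which had 6 reads over all libraries. CCNG1 has a pseudogene, CCNG1P1, and how reads that match both copies were counted was not tested.

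The wider p53 response gave the setting for these changes. Of 26 listed p53 target genes other than the members, 22 rose after irradiation in DMSO, where 26.3% of all genes did (median log2 change 1.29, against 0.05 over all genes), led by the stress cytokine GDF15 (log2 4.92 ± 0.15, to 353 ± 47.5 CPM against 11.8 ± 1.38 CPM) and the antiproliferative gene BTG2 (3.56 ± 0.13). SESN2, named after its value was seen, was the 1 that fell (-0.50 ± 0.12). In proliferating cells 15 of 26 rose with RG7388, against 1.20% of all genes (median 0.55, against -0.004), and 8 with HDM201, against 0.545% (median 0.53, against 0.003). CDKN1A, the gene of the cell-cycle inhibitor p21, was among both, at 748 ± 43.0 CPM with RG7388 and 627 ± 104 CPM with HDM201, against 231 ± 13.2 CPM with DMSO. MDM2's log2 changes there, 0.76 and 0.49, lie on either side of those medians.

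In irradiated cells the same list was split. With RG7388, 2 rose and 6 fell, where 10.9% and 11.9% of all genes did (median 0.03, against -0.03 over all genes). With HDM201, 2 rose and 6 fell too, where 9.96% and 11.3% of all genes did (median -0.07, against -0.02). GDF15 fell with both, to 106 ± 1.04 CPM with RG7388 and 93.6 ± 7.53 CPM with HDM201, against 353 ± 47.5 CPM with DMSO (log2 -1.73 ± 0.13 and -1.91 ± 0.13). The translesion polymerase gene POLH rose with RG7388 (0.51 ± 0.12) and HDM201 (0.36 ± 0.12), as did the ribosomal protein gene RPS27L (0.45 ± 0.16 and 0.62 ± 0.16), which was named after its values were seen. The interaction was called as negative in 12 of 26 with RG7388 and in 14 of 26 with HDM201, where 5.27% and 5.67% of all genes were, and in both it was led by GDF15 (-3.25 ± 0.19 and -3.11 ± 0.19) and BTG2 (-1.98 ± 0.17 and -1.83 ± 0.17). The summed level of 11 immediate early and heat shock genes, listed as a sign of RNA handling, also differed between these groups: 577 to 583 CPM in IR_RG7388, 556 to 565 CPM in IR_HDM201 and 711 to 739 CPM in IR_DMSO. It was 803 to 831 CPM in Prolif_RG7388, 784 to 882 CPM in Prolif_HDM201 and 776 to 821 CPM in Prolif_DMSO. Handling and the compounds cannot be told apart in this sum, and its part in these values was not tested.

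**Figure D5:**
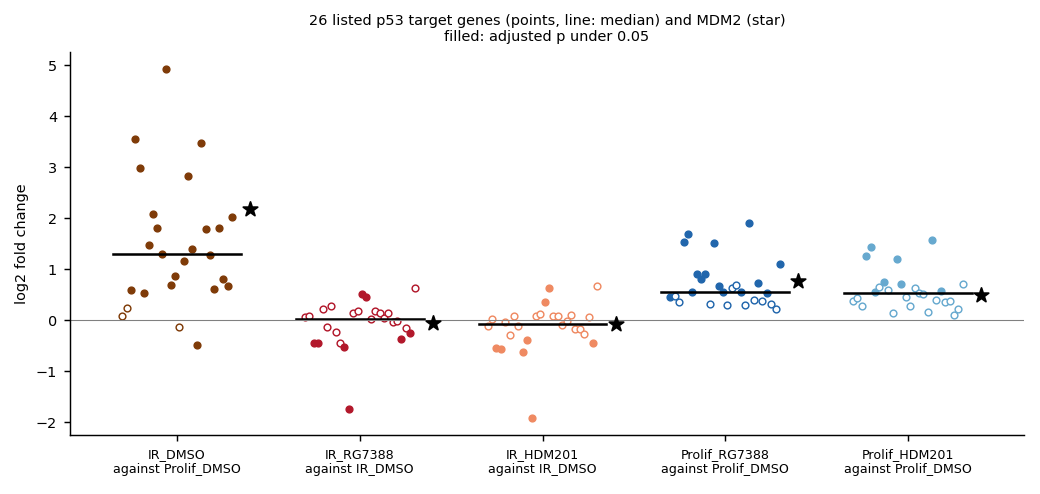
Log2 fold change of 26 listed p53 target genes, 1 point each, in the 5 comparisons with DMSO controls, with a line for the list median, filled points where the edgeR adjusted p is under 0.05, and a star for MDM2. Medians are 1.29 after irradiation, 0.03 and -0.07 with RG7388 and HDM201 in irradiated cells, and 0.55 and 0.53 with RG7388 and HDM201 in proliferating cells.

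Counts in other lists of genes around p53 are read against IR_DMSO and Prolif_DMSO over all genes, where 26.3% rose and 25.3% fell with a median log2 change of 0.05. Of 11 other p53 ligases and deubiquitinases, 3 rose and 6 fell with irradiation (median -0.44), the falls including USP10, a deubiquitinase of p53 (-0.70 ± 0.09), and the ligases COP1 (-0.56 ± 0.10) and TRIM24 (-0.85 ± 0.16). Of 18 modulators of MDM2 and MDM4, 1 rose and 10 fell (median -0.37), including TRIM28, a corepressor that binds MDM2 (-0.95 ± 0.11), the MDM2-binding protein gene MTBP (-1.57 ± 0.28) and nucleolin, NCL (-0.53 ± 0.11). CDKN2A, which encodes p16 and the MDM2 antagonist ARF in overlapping exons that gene-level counts do not separate, was lower with each compound in each state. It was at 7.63 ± 0.849 CPM in IR_RG7388 and 8.32 ± 1.24 CPM in IR_HDM201, against 14.1 ± 1.80 CPM in IR_DMSO (log2 -0.88 ± 0.15 and -0.76 ± 0.15, adjusted p = 9.40e-05 and 0.000618). It was at 9.58 ± 1.03 CPM in Prolif_RG7388 and 10.2 ± 1.45 CPM in Prolif_HDM201, against 16.0 ± 1.47 CPM in Prolif_DMSO (log2 -0.74 ± 0.15 and -0.65 ± 0.15, adjusted p = 0.00972 and 0.0352). RASSF1, a scaffold that binds MDM2, rose in irradiated cells with RG7388 (0.40 ± 0.11) and HDM201 (0.50 ± 0.12), and DAXX, an MDM2 partner, fell with both (-0.30 ± 0.11 and -0.40 ± 0.11).

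Of 13 damage kinases and PPM1D substrates, 4 rose and 6 fell with irradiation, where 26.3% and 25.3% of all genes did (median 0.20, against 0.05). H2AFX, the histone whose phosphorylated form PPM1D acts on (-2.62 ± 0.14), and the kinase genes PRKDC (-1.28 ± 0.11) and CHEK1 (-1.51 ± 0.15) fell. With a compound in irradiated cells 3 of 13 fell each, where 11.9% of all genes fell with RG7388 and 11.3% with HDM201, and CHEK2, a kinase that phosphorylates p53, was at 4.79 ± 0.457 CPM in IR_RG7388 and 5.12 ± 0.673 CPM in IR_HDM201, against 11.3 ± 0.951 CPM in IR_DMSO (log2 -1.24 ± 0.13 and -1.12 ± 0.13). Like PPM1D, CHEK2 had a negative interaction with both compounds (-0.97 ± 0.19 and -1.23 ± 0.18, adjusted p = 0.00111 and 7.23e-05).

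Of 12 PP2A subunits and cyclin G partners, 4 rose and 6 fell with irradiation, where 26.3% and 25.3% of all genes did (median -0.18, against 0.05), the falls including the regulatory subunit genes PPP2R5D (-1.12 ± 0.14) and PPP2R5E (-0.61 ± 0.12). CCNG2, cyclin G2, the closest relative of CCNG1, rose with irradiation as CCNG1 did (0.64 ± 0.15, adjusted p = 0.000792), but fell with the compounds where CCNG1 rose in counts. It was at 22.9 ± 0.875 CPM in IR_RG7388 and 24.3 ± 5.38 CPM in IR_HDM201, against 45.2 ± 7.85 CPM in IR_DMSO (log2 -0.98 ± 0.15 and -0.89 ± 0.15, adjusted p = 2.70e-05 and 0.000105). PPP2R5B, another regulatory subunit gene, rose with RG7388 (0.60 ± 0.10) and HDM201 (0.48 ± 0.10) in irradiated cells and with RG7388 in proliferating cells (0.45 ± 0.10, adjusted p = 0.0160). Of 8 USP7 partners, 1 rose and 6 fell with irradiation (median -0.59, over the same background), led by 2 proteins of DNA methylation, UHRF1 (-3.16 ± 0.13) and DNMT1 (-2.01 ± 0.10), and by the checkpoint adaptor CLSPN (-2.56 ± 0.25). In irradiated cells RG7388 lowered CLSPN further (-1.08 ± 0.26, adjusted p = 0.00602).

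Among the members, log2 CPM of MDM2 and CCNG1 ran together over the 18 libraries (Pearson r = 0.94) and still did after group means were taken out (0.84). Prolif_HDM201 replicate 3, which stood apart, was the highest Prolif_HDM201 library for both, at 73.0 CPM of MDM2 and 129 CPM of CCNG1. MDM2 and USP7 ran opposite over all libraries (-0.93) and weakly so within groups (-0.28), and MDM4 and CCNG1 likewise (-0.95 and -0.33). PPM1D and MDM2 were at 0.43 over all libraries and -0.07 within groups. PPM1D and USP7 differed in sign between the views, -0.36 over all libraries and 0.87 within groups, where IR_DMSO replicate 1 was the lowest IR_DMSO library for both. The libraries fall into 2 states and 6 groups, which these values share, so they are descriptions with no test.

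Of 10393 expressed genes (mean level 5 CPM or more), those most like MDM2 over the 18 libraries were GALNT5, RRM2B, CTSO and FAS (r = 0.990, 0.990, 0.987 and 0.985), of which RRM2B, a ribonucleotide reductase subunit, and FAS, a death receptor, are in the list of p53 targets. RRM2B was at 113 ± 8.51 CPM in IR_RG7388, 118 ± 24.9 CPM in IR_HDM201 and 112 ± 4.61 CPM in IR_DMSO, and at 25.7 ± 4.46, 22.9 ± 7.52 and 15.8 ± 1.91 CPM in Prolif_RG7388, Prolif_HDM201 and Prolif_DMSO. Those most like PPM1D were STC1, SHC3, RGL1 and ZNFX1 (r = 0.950, 0.920, 0.912 and 0.895). STC1, which encodes the secreted hormone stanniocalcin, had the same single peak, at 244 ± 19.98 CPM in IR_RG7388, 225 ± 27.7 CPM in IR_HDM201 and 518 ± 122 CPM in IR_DMSO, and at 186 ± 4.16 to 254 ± 16.4 CPM in the proliferating groups. MDM4 was most like LHFPL2, ZNF395, PIM1 and SLIT2 (r = 0.961 to 0.955), with lower values within groups (0.31 to 0.47). CCNG1 was most like YIPF5, TMEM50B, TMEM167B and RCAN1 (r = 0.991 to 0.988), and USP7 like TTL, SLC7A1, PIP4K2A and POGK (r = 0.995 to 0.992, and 0.92 to 0.96 within groups).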

How the data were processed

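PolyA RNA-seq of 18 IMR90 libraries in 6 groups of 3 was used, and samples were grouped by their labels. As deposited by the authors, the read counts per gene are raw HTSeq counts of STAR alignments to hg38, from the submitters' processing notes (no versions were given there), with 21609198 to 66647700 counts per library. The FPKM values were made by the authors with Cufflinks. From the counts, 45 pseudoautosomal copies of genes were left out, low genes were filtered with filterByExpr (18151 genes kept) and TMM factors were computed. edgeR 4.0.16 (R 4.3.3) fitted a mean per group to all 18 libraries by robust quasi-likelihood (12 residual degrees of freedom), with Benjamini-Hochberg adjustment over all genes and a threshold of 0.05. The script was tested on simulated data. Alternatives were DESeq2 1.42.0, limma 3.58.1 on log2(FPKM + 1) and log2(FPKM + 0.1), other scalings and filters, a replicate block, the groups of a comparison alone, and each library left out. The replicate numbers were not treated as pairs: of 45 pairs of same-numbered libraries, 9 had a correlation of deviations over 0.1 and 5 one under -0.1. The 5 members and the lists of pathway and marker genes were chosen with earlier results of these data known. Named are the members, the 4 genes most correlated with each, and from each list up to 3 called genes with the smallest p in each comparison with DMSO. Some genes of the lists are not reported here.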

Additional observations from a re-analysis of the deposited data

Results flagged for a closer look

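The response of MDM2 to RG7388 differed between the states by -0.82 on the log2 scale (edgeR interaction, adjusted p = 0.0499): the change was -0.06 in irradiated cells and 0.76 in proliferating cells. This call ended when any 1 of 10 of the 12 libraries was left out. PPM1D differed between the states with both compounds. Its interaction was -0.75 with RG7388 (adjusted p = 0.00216), from a change of -0.47 in irradiated cells and 0.28 in proliferating cells, and -0.58 with HDM201 (adjusted p = 0.0180), from -0.45 in irradiated cells and 0.13 in proliferating cells. The HDM201 call ended when any 1 of 6 of the 12 libraries was left out, and its RG7388 call held in all 12 such fits.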

How the results depend on the processing

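The calls for irradiation and for each compound in irradiated cells kept their number within 1.5 times under every alternative, a rule that a loss of 1 call of 3 still meets. Among the 11 alternatives that are not leave-one-out fits, MDM4 after irradiation lost its call or turned in sign in 4. In irradiated cells CCNG1 did so in 4 with RG7388 and in 3 with HDM201, and MDM4 in 1 with RG7388. In proliferating cells RG7388 called 1 member, against 0 with library totals or with limma on either FPKM scale, 2 with DESeq2 or with the groups of the comparison only, 3 without both libraries that stood apart, and 0 to 1 with single libraries left out. The calls over all genes moved as well, from 279 of 18151 to 588 of 13405 with DESeq2. They were 1081 of 15178 with the groups of the comparison only and 1436 of 18341 without both libraries, neither of which is in the groups compared. HDM201 called 0 members in proliferating cells, against 1 with DESeq2 and without both libraries, and 0 to 1 with single libraries left out. Its calls over all genes went from 127 of 18151 to 302 of 14392 with DESeq2 and 2833 of 18341 without both libraries. The RG7388 interaction called 2, against 1 with DESeq2 size factors or library totals and 1 to 2 with single libraries left out. Over all 18151 genes it called 1356, against 1389 with DESeq2 size factors and 1769 with library totals. The HDM201 interaction called 1, against 0 without a low-count filter or with its own groups only and 0 to 1 with single libraries left out. Over all genes it called 1568 of 18151, against 1390 of 50920 without the filter and 1050 of 17879 with its own groups only.

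Signs turned in these changes. With limma on log2(FPKM + 1), with and without a filter, MDM4 after irradiation was 0.24, and with RG7388 in irradiated cells CCNG1 was -0.049 and USP7 -0.020, while USP7 with HDM201 was -0.092. PPM1D in IR_RG7388 against Prolif_RG7388 was 0.019, the interactions of CCNG1 were -0.38 (RG7388) and -0.23 (HDM201), and that of USP7 with HDM201 was -0.0016. With log2(FPKM + 0.1) these were 0.31, -0.049, -0.021, -0.096, 0.022, -0.39, -0.24 and -0.0030. With library totals USP7 with HDM201 in irradiated cells was -0.015 and the RG7388 interaction of CCNG1 -0.0064. PPM1D in IR_HDM201 against Prolif_HDM201 was -0.0078 with its own groups only, -0.058 without both libraries that stood apart, and -0.076 to 0.045 with single libraries left out. USP7 in proliferating cells was -0.067 to 0.0033 with RG7388 and -0.13 to 0.027 with HDM201 when single libraries were left out, and 0.026 with HDM201 without both libraries. Of these, MDM4 after irradiation and CCNG1 with RG7388 in irradiated cells were called in read counts, and the others were not. On log2(FPKM + 1) the median of all genes was itself 0.20 after irradiation, and -0.12 (RG7388) and -0.08 (HDM201) in irradiated cells. The cause of these turns was not tested.

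Counts of calls over all genes moved by over 1.5 times in the proliferating comparisons (RG7388 279, range 94 to 1436; HDM201 127, range 21 to 2833) and in the interactions (RG7388 1356, up to 2204; HDM201 1568, up to 3321). With library totals the median of all genes was 0.34 after irradiation, -0.22 with RG7388 and -0.17 with HDM201 in irradiated cells, and of the calls 71.5%, 20.2% and 22.5% were higher, against 51.0%, 48.0% and 46.8% with TMM. The same split was 67.5% against 77.8% for RG7388 in proliferating cells, 61.8% against 48.3% and 60.2% against 48.9% between states with RG7388 and HDM201, and 15.1% against 29.4% and 15.7% against 34.4% for their interactions. A replicate block changed no member's call: the RG7388 interaction of MDM2 was -0.82 with it (adjusted p = 0.0355).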
